A study of Mus musculus with 9 samples.

Results

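The alpha-actinins and the proteins that assemble around them at the Z-disc were followed at the RNA level in mouse skeletal muscle and in primary muscle cells. The set holds 10 named genes: the nonmuscle alpha-actinin genes Actn1 and Actn4, the muscle alpha-actinin genes Actn2 and Actn3, and Myoz1, Myoz2, Myot, Tcap, Csrp3 and Ldb3. They are 10 of the 46078 genes listed for the cultured cells and of the 38293 listed for the muscle tissue, and 36842 genes are in both lists. RNA-seq was done on 9 libraries in 4 groups, all from C57BL/6 mice. Gastrocnemius muscle (GAS) gave 3 libraries, from untreated female mice of 8 to 12 weeks. Primary myoblasts (MB) in growth medium gave 2 libraries, and myotubes (MT), obtained from MB by 3 days in differentiation medium, gave 2, all of which had received PBS as the vehicle. The other 2 came from MB kept with sodium-L-lactate at 10 mM (lactate-treated MB). The labels number the libraries as biological replicates and do not say which mice or cell preparations they came from, so p-values measure only the spread between these libraries.

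In a sarcomere, actin filaments from neighbouring sarcomeres are anchored with opposite polarity in the Z-disc, where antiparallel alpha-actinin dimers crosslink them. ACTN2 is found at the Z-discs of all skeletal fibres and of the heart and ACTN3 is largely restricted to fast glycolytic fibres, whereas the calcium-sensitive ACTN1 and ACTN4 crosslink actin in focal adhesions, stress fibres and the cell cortex. Myozenins, myotilin and LDB3 bind alpha-actinin directly, TCAP joins the ends of 2 titin molecules, and CSRP3 is a LIM protein that binds alpha-actinin and TCAP.

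The alpha-actinins are close paralogs, so the sequences that their transcripts share were examined first. The coding sequences of the longest annotated coding transcripts were 80.5% identical between Actn1 and Actn4 and 75.7% between Actn2 and Actn3, and the other 4 pairs lay between 75.3% and 77.3%. The longest stretch without a mismatch was 65 bases between the nonmuscle pair and 51 bases between the muscle pair, both in exon 10 of each gene. These stretches are shown because a read lying wholly within one could not be assigned to 1 gene, and whether the counting kept such reads is not given in the sources used here. Reads of the muscle tissue were longer than either stretch before trimming, and the study's methods give no read length for the cultured cells. The first stretch lies at chr12:80183394-80183458 in Actn1 and chr7:28905226-28905290 in Actn4, and the second at chr13:12291714-12291764 in Actn2 and chr19:4867867-4867917 in Actn3 (mm10, all on the minus strand).
Actn1 and Actn4: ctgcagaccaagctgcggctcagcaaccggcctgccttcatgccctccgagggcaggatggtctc
Actn2 and Actn3: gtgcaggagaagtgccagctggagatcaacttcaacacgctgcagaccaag
Myoz1 and Myoz2 were 61.3% identical in coding sequence, with no shared stretch longer than 12 bases.

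Promoter windows, from 250 bases before to 50 after a transcript's start, were read from RefSeq (GRCm38.p6, the assembly also called mm10) and were at hand for 6 of the 10 genes, in 8 windows. Those of the nonmuscle alpha-actinins and of the muscle genes Actn2, Myoz2, Csrp3 and Ldb3 are shown, since the RNA of the first 2 genes and of the other 4 differed in their course from MB to MT. Capitals mark matches on either strand to CANNTG (the E-box), CATTCC, the MEF2 motif and the CArG box, which are known as binding sequences of myogenic bHLH factors, TEAD factors, MEF2 and SRF.
Actn1 promoter, chr12:80260314-80260613, minus strand: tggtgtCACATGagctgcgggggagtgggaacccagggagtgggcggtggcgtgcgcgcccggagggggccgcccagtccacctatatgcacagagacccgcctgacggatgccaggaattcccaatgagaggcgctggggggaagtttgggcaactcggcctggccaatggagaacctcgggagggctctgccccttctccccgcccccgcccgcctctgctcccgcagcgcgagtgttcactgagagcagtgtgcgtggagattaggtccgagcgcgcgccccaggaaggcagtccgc
Actn4 promoter, chr7:28962283-28962582, minus strand: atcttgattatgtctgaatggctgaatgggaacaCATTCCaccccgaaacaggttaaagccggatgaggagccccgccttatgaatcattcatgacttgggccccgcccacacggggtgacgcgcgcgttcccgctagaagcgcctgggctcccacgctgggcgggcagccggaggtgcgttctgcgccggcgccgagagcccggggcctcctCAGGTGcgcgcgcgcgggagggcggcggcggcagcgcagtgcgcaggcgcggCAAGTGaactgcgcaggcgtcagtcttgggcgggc
Actn2 promoter, chr13:12340683-12340982, minus strand: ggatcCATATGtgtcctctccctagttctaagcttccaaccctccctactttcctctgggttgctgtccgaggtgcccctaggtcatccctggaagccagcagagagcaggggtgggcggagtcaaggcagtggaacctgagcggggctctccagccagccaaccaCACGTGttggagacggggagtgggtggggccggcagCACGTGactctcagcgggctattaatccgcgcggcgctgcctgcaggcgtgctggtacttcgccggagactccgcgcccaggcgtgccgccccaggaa
Myoz2 promoter, chr3:123034938-123035237, minus strand: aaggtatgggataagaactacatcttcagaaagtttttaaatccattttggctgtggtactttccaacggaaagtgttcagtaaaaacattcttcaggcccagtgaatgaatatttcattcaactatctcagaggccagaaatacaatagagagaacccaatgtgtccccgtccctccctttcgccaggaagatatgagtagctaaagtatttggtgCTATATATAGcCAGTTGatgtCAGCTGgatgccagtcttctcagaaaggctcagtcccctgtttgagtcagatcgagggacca
Csrp3 promoter, chr7:48848002-48848301, minus strand: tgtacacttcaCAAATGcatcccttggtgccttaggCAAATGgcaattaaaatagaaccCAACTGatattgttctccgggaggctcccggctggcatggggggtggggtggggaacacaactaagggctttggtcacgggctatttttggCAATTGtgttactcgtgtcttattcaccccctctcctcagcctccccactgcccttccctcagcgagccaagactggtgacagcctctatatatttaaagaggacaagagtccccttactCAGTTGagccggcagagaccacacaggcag
Ldb3 promoter, chr14:34588632-34588931, minus strand: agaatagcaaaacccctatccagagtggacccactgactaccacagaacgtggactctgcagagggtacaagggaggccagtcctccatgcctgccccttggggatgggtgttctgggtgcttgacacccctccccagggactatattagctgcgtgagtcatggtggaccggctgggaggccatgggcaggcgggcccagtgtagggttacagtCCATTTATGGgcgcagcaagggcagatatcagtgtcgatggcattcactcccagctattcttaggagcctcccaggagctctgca
Over all 32851 windows, 72.3% held at least 1 CANNTG, 14.7% CATTCC, 3.19% the MEF2 motif and 1.63% the CArG box. A CANNTG match was thus common, and it was present once in the Actn1 window, 2 times in Actn4 and Myoz2, 3 times in Actn2 and 5 times in the Csrp3 window shown, but in neither Ldb3 window. The Myoz2 window held a MEF2 match from base -33 to -24 and a CAGCTG, a form found in 16.3% of all windows, from -12 to -7. The 2 overlapping Ldb3 windows held a single CArG match, at -35 to -26 in the window shown. GC content was 68.3% in Actn1, 68.0% in Actn4 and 64.7% in Actn2, against a median of 52.7% over all windows, and 42.7% in Myoz2. These windows held 24, 35, 19 and 4 CpG dinucleotides in that order, against a median of 7. A match describes the letters of a window and was not tested as a binding site.

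Total counts per library ran from 5198247 to 10839516 in the cultured cells, which were profiled with Smart-seq2 from 5 ng of total RNA, and from 19307793 to 19941574 in GAS, which was profiled from poly(A) RNA. A count of 3 in a library, used here as the detection floor, corresponds to between 0.223 and 0.533 CPM (counts scaled to a fixed library size by TMM) in the cultured cells and to between 0.152 and 0.156 CPM in GAS. The library MT replicate 1 stood apart, with 28599 genes detected against 15548 to 17965 in the other cultured libraries. Markers matched the labels of MB and MT. Myoblast markers (Pax7, Myf5 and Myod1) summed to between 757 and 1236 CPM in MB and between 161 and 387 CPM in MT, and myotube markers (Myog, Mymk and Myh3) to between 59.8 and 139 CPM in MB and between 2906 and 6642 CPM in MT. Fibroblast markers (Col1a1, Dcn, Dpt and Pdgfra) were all detected in both MT libraries, at a sum of 13533 CPM in replicate 1 and 1876 CPM in replicate 2. Col1a1 made up most of it (13116 and 1762 CPM), with Dcn at 408 and 110 CPM. Dpt (3.05 and 1.02 CPM) and Pdgfra (5.66 and 2.54 CPM) were low. In MB the markers summed to at most 2.57 CPM, with Pdgfra at 1.59 and 1.45 CPM and Dpt at 0. Smooth muscle markers (Acta2, Tagln, Myh11 and Cnn1), of which Acta2 and Tagln are also expressed by immature muscle cells, summed to between 1438 and 3918 CPM in MT. In MB they summed to between 293 and 472 CPM, with Cnn1 at 0. Myh11 (2.98 and 0.382 CPM) and Cnn1 (3.20 and 0.890 CPM) were low in MT. Whether other cells were present, and what part they had in the results below, was not tested. In bulk RNA, fewer cells of a type and less RNA per cell cannot be told apart.

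Whether the Z-disc genes change when MB differentiate was asked by comparing the MT and MB libraries. All 8 muscle genes of the set rose, by between 4.63 and 8.71 on the log2 scale for the 5 genes with more than 3 counts in an MB library, and from 0 to 2 counts per MB library for Myoz1, Myoz2 and Myot, while Actn1 and Actn4 did not pass the test in either direction. By edgeR's quasi-likelihood test, at an adjusted p under 0.05 and an absolute log2 fold change (log2FC) over 0.5, 8 of the 10 genes were thus higher in MT and 0 lower, against a background of 11.0% of the 12921 genes tested that were higher and 6.86% that were lower. The median log2FC of the 10 genes was 7.21, also with Myot set to its lower bound, and that of all genes tested was 0.072. The 8 genes that rose lay above both MB libraries in both MT libraries, as did 32.9% of all genes tested, and the same 8 passed without MT replicate 1.

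**Figure D1:**
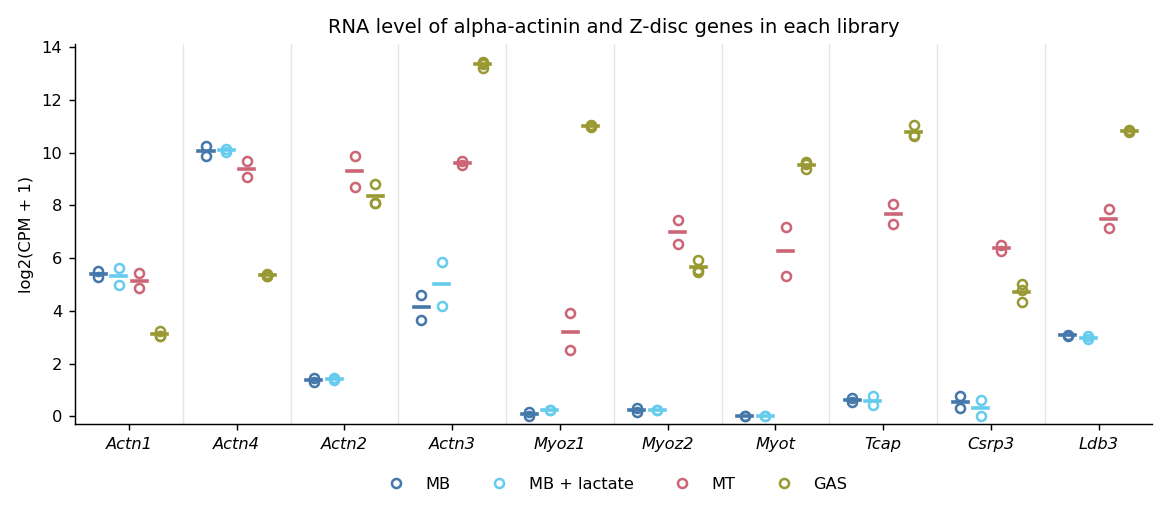
RNA level of each gene as log2(CPM + 1) in every library. Circles are libraries and bars are group means for MB, lactate-treated MB (both n = 2), MT (n = 2) and GAS (n = 3). The 8 muscle genes lie higher in MT than in MB, Actn1 and Actn4 lie lowest in GAS, and CPM of GAS and of the cultured cells were scaled separately.

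Actn1 (ENSMUSG00000015143, chr12:80167547-80260371) and Actn4 (ENSMUSG00000054808, chr7:28893248-28962340), the nonmuscle alpha-actinins, did not pass the test between MT and MB. The level of Actn4 was 1228 and 933 CPM in MB and 539 and 819 CPM in MT. Both MT libraries lay below both MB libraries, as did 29.2% of all genes tested, but the gap between the groups was narrower than the spread within either. The log2FC of Actn4 was -0.70 with a standard error of 0.54 (adjusted p = 0.404, edgeR's quasi-likelihood test). Actn1 stood at 37.6 and 44.2 CPM in MB and at 28.2 and 42.5 CPM in MT, so that the libraries overlapped. Its log2FC was -0.22 with a standard error of 0.45 (adjusted p = 0.776, edgeR's quasi-likelihood test). Actn4 held 95.0% and 96.7% of the nonmuscle alpha-actinin RNA per kilobase of exon in MB and 94.5% and 94.6% in MT, and it was the main nonmuscle form in all cultured libraries. In GAS, Actn4 stood at 38.6 to 41.4 CPM and Actn1 at 7.19 to 8.53 CPM, and Actn4 held 81.4% to 83.0% of the pair. The annotation places 316 exonic bases of Actn4 opposite Capn12, which had 9 counts in all cultured libraries together and 9 in GAS, and 88 and 363 exonic bases of Actn1 opposite the antisense genes Gm47767 and Gm47766. No source used here says whether strand entered the counting, so reads from these stretches cannot be told apart.

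Actn2 (ENSMUSG00000052374, chr13:12269426-12340760) and Actn3 (ENSMUSG00000006457, chr19:4861216-4877909), the sarcomeric alpha-actinins, both rose in MT, from very different levels in MB. Actn2 had 14 and 12 counts in MB, or 1.72 and 1.45 CPM, and 5554 and 7482 counts in MT, or 414 and 952 CPM. It was low in MB and among the 380 highest genes per kilobase in both MT libraries. The rise of Actn2 was 8.71 on the log2 scale with a standard error of 0.73 (adjusted p = 9.5e-05, edgeR's quasi-likelihood test), and 7.92 without MT replicate 2. Actn3 was already present in MB at 23.7 and 11.6 CPM (193 and 96 counts) and reached 750 and 834 CPM in MT. In relative terms the MB libraries differed from each other more than the MT libraries did. Actn3 rose by 5.46 on the log2 scale with a standard error of 0.63 (adjusted p = 0.000371, edgeR's quasi-likelihood test), and by 6.05 without MB replicate 1. In GAS, Actn3 stood at 9523, 10650 and 11205 CPM against 275, 276 and 452 CPM for Actn2. The CPM of Actn2 in GAS thus lay within or below the range of MT, while that of Actn3 was more than 10 times higher. GAS and the cultured cells were scaled separately and not tested against each other, because tissue and library protocol cannot be told apart, so such values stand side by side only.

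The balance of the 4 alpha-actinins was read within each library as shares of their summed RPKM (CPM per kilobase of exon), which do not depend on the scaling between libraries. The muscle forms Actn2 and Actn3 together made up 3.99% and 2.65% of alpha-actinin RNA in MB, 79.8% and 79.2% in MT, and 99.8% in each GAS library. MT libraries differed by less than 1 percentage point in this share, and the difference between the means of MT and MB was 76.2 percentage points. A two-sided exact permutation test of this share gave p = 0.333, the smallest value that 2 libraries against 2 can give. The summed muscle RPKM was 8.61 and 4.37 in MB and 368 and 538 in MT, and the summed nonmuscle RPKM was 207 and 160 in MB and 93.0 and 141 in MT. The share thus moved mainly with the muscle forms. In GAS the muscle forms summed to between 3402 and 3935 RPKM and the nonmuscle forms to between 7.60 and 8.30 RPKM. Within the muscle pair, Actn3 held 94.7% and 91.3% in MB, 70.4% and 53.4% in MT and 96.5% to 98.2% in GAS, so that MT was the group with the largest share of Actn2. With the longest transcript as the length of each gene, the difference in the muscle share was 70.9 percentage points, and with plain counts 65.7.

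**Figure D2:**
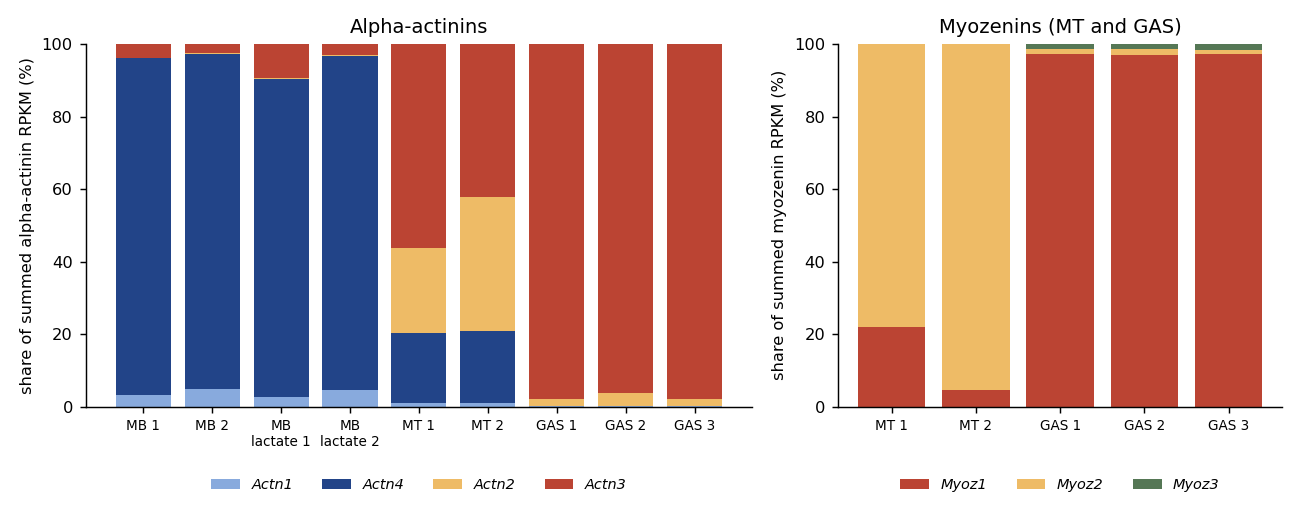
Left, share of each gene in the summed RPKM of the 4 alpha-actinins in every library. Actn4 makes up most of it in MB with or without lactate, Actn3 and Actn2 together 79.2% to 79.8% in MT, and Actn3 at least 96.3% in GAS. Right, share of each gene in the summed RPKM of the 3 myozenins in MT and GAS, where Myoz2 leads in MT and Myoz1 in GAS.

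The myozenins, which tether alpha-actinin and filamin C at the Z-disc and bind the phosphatase calcineurin, both rose in MT but in unequal amounts. Myoz2 (ENSMUSG00000028116, chr3:123006206-123035015), the form of slow fibres and heart, had 2 counts and 1 count in MB and 1222 and 1353 counts in MT, or 91.0 and 172 CPM. The ratio of MT to MB was 663, with an exact 95% interval of 227 to 3219 that covers counting error only. Its fitted log2FC was 9.37 with a standard error of 0.73 (adjusted p = 8.72e-05, edgeR's quasi-likelihood test), and 8.77 without MT replicate 2. Myoz1 (ENSMUSG00000068697, chr14:20649107-20656540), the fast-fibre form, had 0 counts and 1 count in MB and only 190 and 37 counts in MT, or 14.1 and 4.71 CPM. The MT libraries differed 3-fold, with replicate 1 the higher. The ratio of MT to MB for Myoz1 was 175, with a counting interval of 31.2 to 6960. Its fitted log2FC was 7.05 with a standard error of 1.26 (adjusted p = 0.00445, edgeR's quasi-likelihood test), and it moved to 5.91 without MT replicate 1, 6.12 without MB replicate 1 and 9.50 without MB replicate 2. In GAS, Myoz1 stood at 2032 to 2150 CPM and Myoz2 at 44.0 to 59.9 CPM. Per kilobase, Myoz2 held 78.0% and 95.2% of the RNA of the 3 myozenins in MT, and Myoz1 held 97.0% to 97.4% of it in GAS. Myoz3, the remaining myozenin, had at most 1 count in MT and 0 in MB, and held 1.47% to 1.58% in GAS.

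Myot (ENSMUSG00000024471, chr18:44334074-44355724) encodes myotilin, which binds alpha-actinin and filamin C and bundles actin. It had 0 counts in all 4 MB libraries, with or without lactate, and 1962 and 305 counts in MT, or 146 and 38.8 CPM. Myot was the only gene of the set at 0 throughout MB, and MT replicate 1 lay well above replicate 2. Against the floor of 3 counts per library, 0.365 CPM, the rise of Myot was at least 254-fold (adjusted p = 0.000337, edgeR's quasi-likelihood test). The fit placed its log2FC at 12.81, which depends on the prior count, and at 11.26 without MT replicate 1 and 13.46 without MT replicate 2. The MT library with more Myot and Myoz1 was replicate 1, which also held the larger sum of fibroblast markers. In GAS, Myot stood at 666, 771 and 807 CPM.

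Tcap (ENSMUSG00000007877, chr11:98383811-98384953) encodes the titin cap, telethonin, and is the shortest gene of the set, with 948 exonic bases. It had 5 and 4 counts in MB, or 0.613 and 0.482 CPM, and 2126 and 2086 counts in MT, or 158 and 265 CPM. Both MT libraries were far above MB. Tcap rose by 8.54 on the log2 scale with a standard error of 0.64 (adjusted p = 8.72e-05, edgeR's quasi-likelihood test). GAS held 1575, 1648 and 2138 CPM.

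Csrp3 (ENSMUSG00000030470, chr7:48830398-48848033) encodes muscle LIM protein, a cofactor of myogenic factors that also sits at the Z-disc. Its MB libraries had 6 and 2 counts, or 0.735 and 0.241 CPM, and its MT libraries 1198 and 603 counts, or 89.2 and 76.7 CPM. The MT libraries were close to each other in CPM. Csrp3 rose by 7.37 on the log2 scale with a standard error of 0.70 (adjusted p = 0.000143, edgeR's quasi-likelihood test). Because it rested on 8 counts in MB, the rise was 8.31 without MB replicate 1 and 6.64 without MB replicate 2. The CPM of Csrp3 was 31.3, 19.3 and 26.6 in GAS. All 3 tissue libraries, which were scaled separately, lay below both MT libraries, as was also so for Myoz2, Actn1 and Actn4.

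Ldb3 (ENSMUSG00000021798, chr14:34526603-34588682) encodes the PDZ-LIM protein also called Cypher or ZASP, which binds alpha-actinin through its PDZ domain. With 62 and 60 counts, or 7.60 and 7.23 CPM, it was well above the floor in MB, and it reached 141 and 232 CPM in MT. Ldb3 rose by 4.63 on the log2 scale with a standard error of 0.50 (adjusted p = 0.000255, edgeR's quasi-likelihood test), less than the other 7 muscle genes in the fit. Its level in GAS was 1817, 1839 and 1778 CPM, which spread least, relative to the mean, among the 10 genes.

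**Figure D3:**
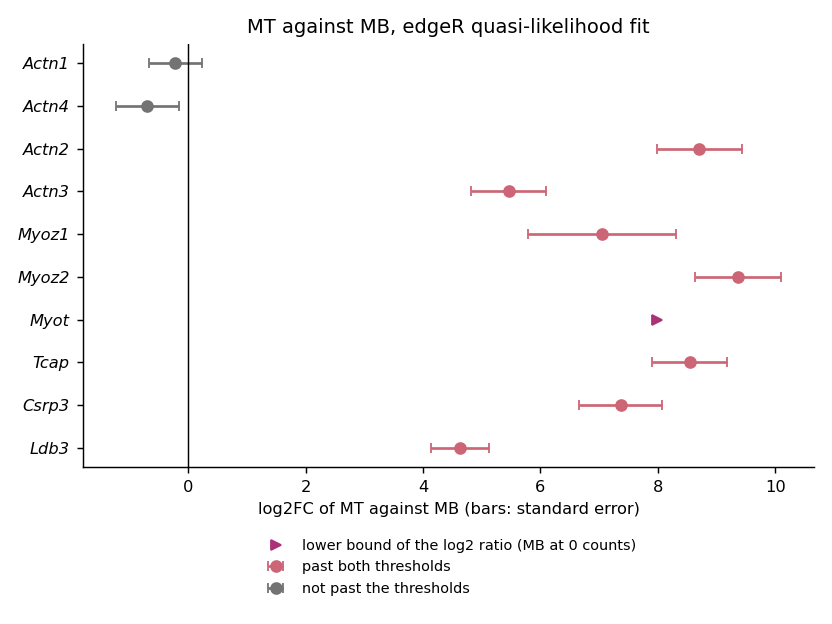
Fitted log2FC of MT against MB for each gene, with its standard error. Actn1 and Actn4 did not pass the thresholds, the 7 other points lie between 4.63 and 9.37, those of Myoz1 and Myoz2 resting on at most 2 counts per MB library, and the triangle for Myot is the lower bound set by 3 counts per library, since Myot had 0 counts in MB.

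To place the set among its neighbours, 55 other Z-disc genes and 23 genes of focal adhesions and stress fibres, where Actn1 and Actn4 act, were read from the same fit. Of the 53 other Z-disc genes tested, 26 were higher in MT, 0 were lower and 27 did not pass, against 11.0% of all genes tested that were higher and 6.86% that were lower. Their median log2FC was 1.98. Myoz3 and Ankrd2 were not tested because of low counts, the latter with 31 and 4 counts in MT and 0 in MB. The genes with the largest fitted changes were Xirp2, Cmya5, Lmcd1, Mypn and Smpx. Xirp2, a Xin actin-binding repeat protein, and Cmya5, or myospryn, had 0 counts in MB. Against the floor of 3 counts per library, Xirp2 was at least 57.3-fold higher in MT and Cmya5 at least 29.3-fold. Lmcd1, a LIM protein that acts on calcineurin, and Mypn, which encodes myopalladin, each had a single count in MB, and their ratios were 760 (counting interval 136 to 30068) and 465 (83.2 to 18407). Smpx, a small stretch-responsive muscle protein, rose by 7.92 on the log2 scale with a standard error of 0.65 (adjusted p = 9.21e-05, edgeR's quasi-likelihood test).

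Relatives of the set differed by family. Of the PDZ-LIM genes related to Ldb3, Pdlim3 rose by 5.70 and Pdlim4 by 4.34 on the log2 scale, while Pdlim5 (log2FC 1.39, adjusted p = 0.0587), Pdlim2 (1.02, 0.239), Pdlim7 (0.33, 0.652) and Pdlim1 (-1.28, 0.108) did not pass edgeR's quasi-likelihood test. Csrp1 and Csrp2, the relatives of Csrp3 found in other cell types, had log2FC values of 0.60 and 0.13 and did not pass (adjusted p = 0.479 and 0.886, edgeR's quasi-likelihood test). In the family of Myot, Mypn rose, and Palld, the broadly expressed palladin gene, had a log2FC of 1.10 (adjusted p = 0.116, edgeR's quasi-likelihood test). By group, 8 of 9 genes of Xin and further Z-disc proteins and 5 of 7 proteostasis genes rose. So did both genes of the titin and obscurin group, 2 of 4 genes of the nebulin family and 3 of 8 LIM and signalling genes. Of the ankyrin repeat genes tested, 1 of 2 rose, as did both genes of the synaptopodin family. None of the 3 filamin genes, the 3 genes of actin capping proteins and the 3 genes of intermediate filament links passed, in either direction.

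Of the 22 adhesion and stress fibre genes tested, 2 were higher in MT, 0 were lower and 20 did not pass, with a median log2FC of -0.38. The share that was higher is near the 11.0% of all genes tested, and 6.86% of those were lower, so these counts do not set the list apart. Evl was not tested because of low counts (9 to 12 in MT and 10 to 20 in MB). Those that rose were Synpo, the actin-associated synaptopodin, by 4.18 on the log2 scale with a standard error of 0.70 (adjusted p = 0.0033, edgeR's quasi-likelihood test), and Enah, an actin filament elongation factor, by 2.54 with a standard error of 0.62 (adjusted p = 0.0181, edgeR's quasi-likelihood test). Without MT replicate 1, Synpo passed and Enah did not. DESeq2 called 3 genes of this list lower, against 0 in edgeR's quasi-likelihood test, and 1138 of 30070 genes over all. In edgeR's quasi-likelihood test, 7 of the 22 had an unadjusted p under 0.05 in either direction, as had 4197 of all 12921. The edgeR counts at an unadjusted p under 0.05 do not set the list apart, whereas the DESeq2 share of lower calls exceeded that of all genes. Of the 22, 31.8% had a positive log2FC, against 52.3% of all genes tested. In both MT libraries, 8 of the 22 lay below both MB libraries and 6 above, against 29.2% and 32.9% of all genes tested. The difference between the lists was not tested.

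**Figure D4:**
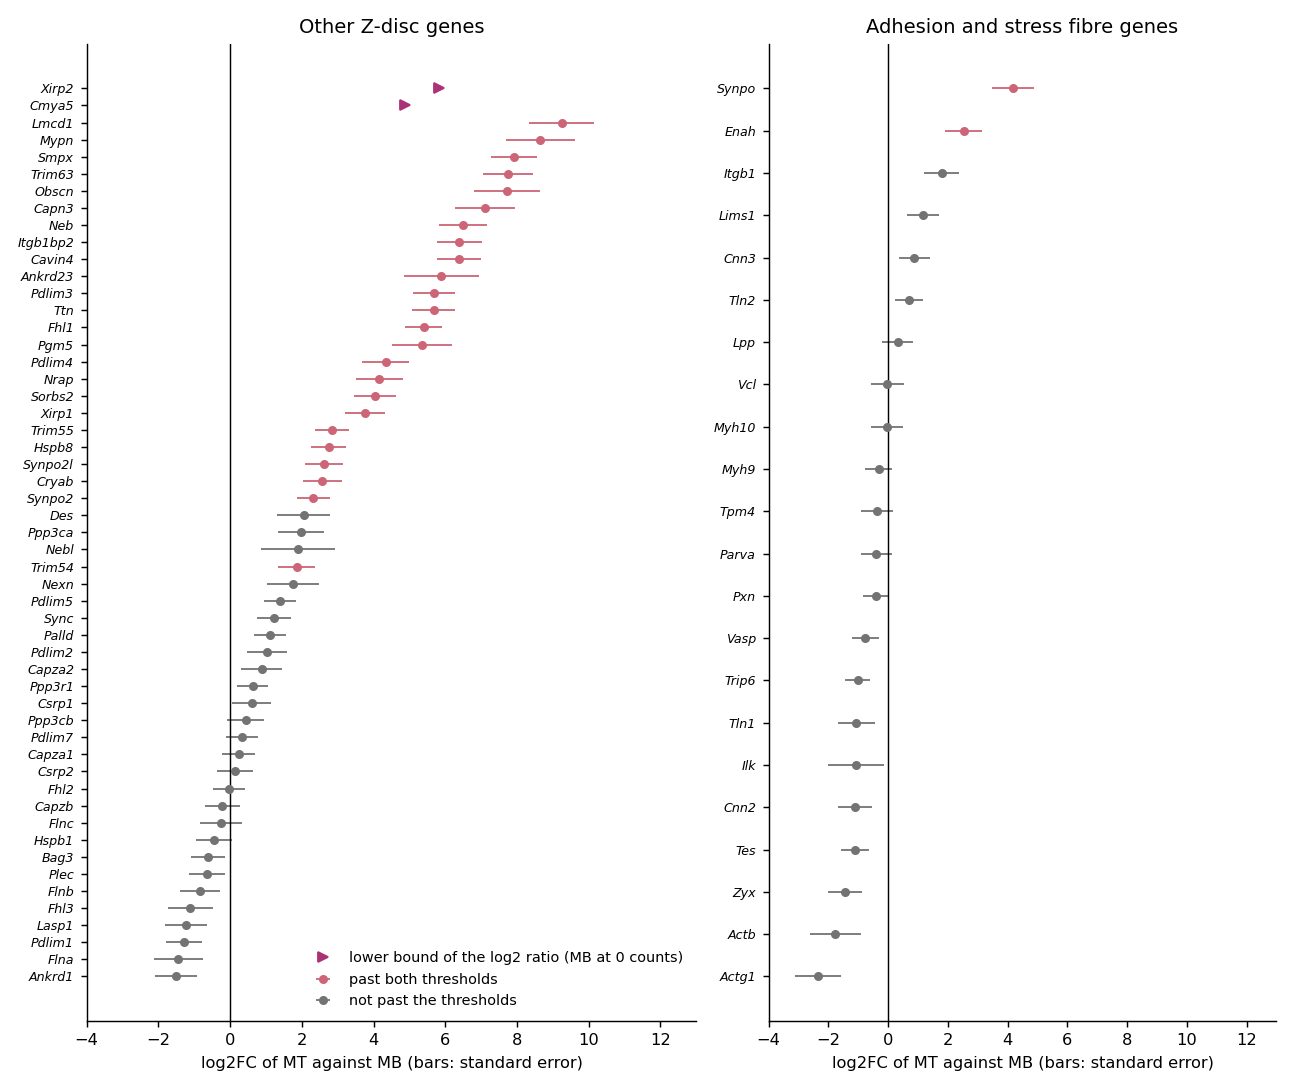
Fitted log2FC of MT against MB, with standard errors, for the 53 other Z-disc genes tested (left) and the 22 adhesion and stress fibre genes tested (right). Red points passed both thresholds, 26 on the left and 2 on the right together with the triangles, which mark lower bounds for Xirp2 and Cmya5 (0 counts in MB).

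Whether lactate alters these genes was asked in MB, with lactate-treated against control libraries. In the fit without a replicate term, no gene of the set passed a nominal p under 0.01 with an absolute log2FC over 0.5. Neither did any other gene, so that the background was 0.0% of 11804 genes tested. With the replicate number as a block, 13 of the 11804 genes passed this threshold, none of them in the set. Without the block, 5 genes passed edgeR's quasi-likelihood test at an unadjusted p under 0.05. DESeq2 had 4 such genes, of which 2 passed the nominal threshold, none of them in the set. Over all genes, the nominal count was 177 without MB replicate 2, 19 without MB replicate 1, and 1 and 2 without lactate-treated replicates 1 and 2, while that of the set was 0 each time. The comparison shares its control MB libraries with that of MT. Of the 10 genes, 5 had enough counts to be tested. Myoz1, Myoz2, Myot, Tcap and Csrp3 had at most 6 counts in any MB library with or without lactate, which cannot show a difference at this depth.

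Actn3 moved most among the 5 tested. Its level was 23.7 CPM in control and 56.9 CPM in lactate-treated MB of replicate number 1, and 11.6 and 17.1 CPM in number 2. Both treated libraries lay above the control of the same number, by 1.26 and 0.55 on the log2 scale, but the groups overlapped. Actn3 had a fitted log2FC of 1.02 with a standard error of 0.68 (adjusted p = 1.00, edgeR's quasi-likelihood test), and the value was 1.73 without MB replicate 1, 0.60 without MB replicate 2, 1.62 without lactate-treated replicate 2 and -0.029 without lactate-treated replicate 1. Over all genes tested, the middle 90% of such within-number differences ran from -0.91 to 1.18 in number 1 and from -0.61 to 0.59 in number 2. The difference for Actn3 was thus outside this range in number 1 and inside it in number 2. With the replicate number as a block, the log2FC of Actn3 was 0.90 with a standard error of 0.31. In edgeR's quasi-likelihood test with that block, Actn3 had an unadjusted p under 0.05, as had 166 of all 11804 genes tested. It did not pass the nominal threshold of 0.01. Without the block, its unadjusted p in the same test was over 0.05.

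The other 4 genes stayed close to their control levels. Actn4 stood at 1228 and 933 CPM in control and 1122 and 1056 CPM in lactate-treated MB (log2FC -0.023, standard error 0.42). Actn1 went from 37.6 to 30.7 CPM in number 1 and from 44.2 to 48.7 CPM in number 2 (log2FC -0.069, standard error 0.45). Actn2, with 9 to 14 counts per library, had a log2FC of 0.055 with a standard error of 0.76. Ldb3 stood at 7.60 and 7.23 CPM in control and 7.20 and 6.58 CPM in treated MB, a log2FC of -0.14 with a standard error of 0.50. Both treated libraries of Ldb3 lay below both controls, as did 6.84% of all genes tested, whereas those of the other 3 genes overlapped with them. None of the 5 genes lay above both controls in both treated libraries, as 4.28% of all genes tested did. The standard errors of 0.42 to 0.76 leave changes of that size in either direction within the error. They belong to the fit without a replicate term. With the replicate number as a block they ran from 0.22 for Actn4 to 0.58 for Actn2. The muscle share of alpha-actinin RPKM was 9.60% and 3.39% in lactate-treated MB, against 3.99% and 2.65% in control MB.

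**Figure D5:**
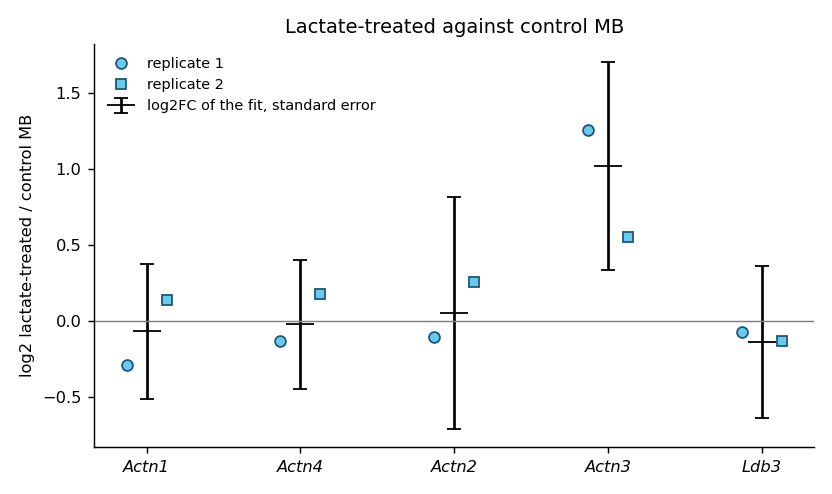
Log2 difference between lactate-treated and control MB for the 5 genes tested. Circles and squares are the differences within replicate numbers 1 and 2, and bars are the fitted log2FC with its standard error, which reaches across 0 for every gene but Actn3, which did not pass the threshold.

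In GAS, per kilobase of exon, the 10 genes spanned more than 3 orders of magnitude and their ranges did not overlap between neighbours in the order. Actn3 led with a mean of 3605 ± 295 RPKM (SD, n = 3), followed by Tcap at 1885 ± 323 and Myoz1 at 1104 ± 31.2 RPKM. Myot at 339 ± 33.1 and Ldb3 at 297 ± 5.05 RPKM stood next, and these 2 change places when the longest transcript is taken as gene length. Actn2 at 88.1 ± 26.9, Myoz2 at 14.6 ± 2.56, Csrp3 at 9.65 ± 2.26, Actn4 at 6.50 ± 0.235 and Actn1 at 1.39 ± 0.134 RPKM followed. The fast-fibre genes Actn3 and Myoz1 thus stood above their relatives Actn2 and Myoz2, in a muscle whose fast-fibre markers (Myh1, Myh2, Tnnt3 and Atp2a1) summed to between 58282 and 60213 CPM and slow-fibre markers (Myh7, Tnnt1, Tnni1 and Atp2a2) to between 486 and 788 CPM. Among the GAS libraries, replicate 2 had the highest Actn2 (452 CPM) and Myoz2 (59.9 CPM), the lowest Actn3 (9523 CPM) and the highest sum of slow-fibre markers (788 CPM). Its fast-fibre markers were divided. Myh1 (3966 CPM) and Myh2 (1795 CPM) were also highest in replicate 2, and Tnnt3 (21635 CPM) and Atp2a1 (31409 CPM) lowest. Their sum there, 58806 CPM, lay between those of the other libraries. The part of the fibre types in these differences was not tested.

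In MT the order differed. Actn3 at 273 ± 20.5 RPKM (SD, n = 2), Tcap at 223 ± 79.8, Actn2 at 180 ± 100.2 and Actn4 at 111 ± 32.4 RPKM came first, and neighbours among these 4 overlapped. Myot at 41.8 ± 34.3, Myoz2 at 38.4 ± 16.7, Csrp3 at 31.1 ± 3.31 and Ldb3 at 30.5 ± 10.6 RPKM formed the next group, which also overlapped within itself but not with Actn4 above it. Actn1 at 6.39 ± 1.82 and Myoz1 at 4.98 ± 3.53 RPKM were lowest, and their ranges overlapped. In MB, Actn4 stood alone at 176 ± 34.0 RPKM (SD, n = 2), with Actn1 at 7.40 ± 0.845 and Actn3 at 6.07 ± 2.94 RPKM overlapping below it and Ldb3 at 1.21 ± 0.0425 RPKM next. The other 6 genes had means of at most 0.577 RPKM. Slow-fibre markers summed to between 2597 and 4410 CPM in MT and fast-fibre markers to between 2034 and 3897 CPM. The slow-fibre sum was mostly Tnni1 (1820 and 2701 CPM) and Tnnt1 (565 and 1299 CPM). Myh7 stood at 105 and 273 CPM and Atp2a2 at 106 and 137 CPM. The fast-fibre sum was mostly Tnnt3 (1050 and 2176 CPM) and Atp2a1 (600 and 955 CPM). Myh1 stood at 371 and 752 CPM, above Myh7, and Myh2 at 13.4 and 13.2 CPM. The fibre type of MT was not tested.

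The genes whose pattern over the 6 cultured libraries lay nearest to that of each alpha-actinin were found by the root mean square difference of centred log2(CPM + 1) among 13386 genes. For Actn2 they were Myh8, the perinatal myosin heavy chain gene (0.264), Myl1, a myosin light chain gene (0.283), and Mef2c, a muscle transcription factor gene (0.299). Nearest to Actn3 were Tmem119 (0.292), Tmem38a (0.393) and S100a16 (0.411). The muscle alpha-actinins thus had different neighbours at these distances. Actn4 lay nearest to Vcp (0.061), Wipi2 (0.062) and Vcp-rs (0.063), and Actn1 to Zfp113 (0.068), Atxn1l (0.069) and Ddx19b (0.082), at smaller distances because the levels of these genes varied little. Vcp and Vcp-rs are near-identical copies that share reads, so their separate values are uncertain.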

How the data were processed

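RNA-seq of 3 GAS, 2 MT, 2 MB and 2 lactate-treated MB libraries was used. The authors deposited unnormalized counts per gene, which they made as follows. They trimmed reads with Trim Galore 0.6.6, aligned them to mm10 with HISAT2 2.2.1 and counted them with featureCounts of Subread 2.0.1. The annotation release, strand setting and treatment of reads with several alignments are not given in the sources used here.

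Gene names, coordinates and exonic lengths came from GENCODE M21 (mm10). CPM used TMM scaling, computed separately for GAS and for cultured cells, and RPKM is CPM per kilobase of the union of exons. MT, and lactate-treated MB, were each compared with MB in a fit of those 4 libraries with edgeR 4.0.16 (R 4.3.3): filterByExpr, TMM and the quasi-likelihood test without a replicate term, with Benjamini-Hochberg adjustment over all genes tested. Thresholds were an absolute log2FC over 0.5 with an adjusted p under 0.05 for MT and, following the study, a nominal p under 0.01 for lactate. At its lactate threshold the study itself reported a small number of changed genes with edgeR, and its methods do not describe the model fitted. The fits were tested on simulated data, with changes planted only in genes with higher counts and calls made by adjusted p. That test does not cover genes with few counts in MB or the nominal lactate threshold. Intervals are exact binomial at 95%, and they and the floor of 3 counts cover counting error only. Shares were compared by an exact permutation test in Python 3.11.15 with scipy 1.17.1.

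The members and gene lists were chosen with earlier results of these data known. Named genes are the 10 members, relatives of a member among the other Z-disc genes, the 5 called Z-disc and 3 called adhesion genes with the largest log2FC in each direction whose libraries did not overlap, the 3 nearest genes to each alpha-actinin (mean CPM over 1), and markers. Ankrd2 and Evl were named after their counts were seen. Alternatives were RLE size factors, DESeq2 1.42.0, no filter or at least 10 counts in every library, the replicate number as a block, a joint fit of the 6 cultured libraries, each library left out, edgeR's likelihood ratio test, an adjusted threshold for lactate and other gene lengths. The crossed pairing, and the likelihood ratio test for MT, were added after the data were seen.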

Additional observations from a re-analysis of the deposited data

How the results depend on the processing

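All 105 recomputed log2FC values of the 10 genes between MT and MB kept their direction and their side of the threshold, as did 46 of 54 for lactate. With at least 10 counts in every library, 5 of the 10 genes could be tested and 3 were higher in MT, since genes near 0 in MB leave the test. In that setting 14 of the other Z-disc genes, 1 adhesion gene and 766 of all 10648 genes tested were higher. With the replicate number as a block, 8 of the 10 genes were higher, as were 1447 of all 12921 genes tested. The block changed no call on the 10 genes. Deviations of libraries with the same number correlated at -0.13 for MT and MB and at 0.70 for lactate, and with 2 pairs the libraries share only a number. With the block, 13 genes of all passed the nominal lactate threshold against 0, and Actn3 had a log2FC of 0.90 and did not pass it. With crossed numbers, 1192 genes of all were higher and 867 lower.

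Lower calls in MT, 0 in the text, were 1 other Z-disc gene and 3 adhesion genes with DESeq2 and with the likelihood ratio test. With crossed numbers they were 3 adhesion genes. Over all genes tested, lower calls were 1138 of 30070, 1343 of 12921 and 867 of 12921 in that order. Leaving out each library in turn gave 0 to 3 lower genes in either list and 1 to 3 higher adhesion genes, where the lone library is assumed to vary like the other group. All genes called numbered 962 higher and 270 lower without MT replicate 1, and 4118 and 803 without MT replicate 2.

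The muscle share difference was 70.9 percentage points with longest transcripts and 65.7 with counts. By longest transcripts, 2 genes changed place in GAS, 6 in MT and 0 in MB. For lactate, Actn4 changed sign to 0.031 with RLE factors and 0.019 with DESeq2. Leaving out each library gave log2FC values of -0.48 to 0.27 for Actn1, -0.070 to 0.26 for Actn2, -0.029 to 1.73 for Actn3 and -0.20 to 0.27 for Actn4, none past the threshold. Depth limits 5 genes in MB, which had at most 6 counts per library.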
